A study of Mus musculus with 30 samples.

Results

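The genes described here are 4 targets of canonical Wnt signalling (Axin2, Sp5, T and Cdx1) and 3 TCF/LEF transcription factors (Lef1, Tcf7 and Tcf7l1). They were taken as the rows whose Ensembl identifiers carry these symbols in GENCODE M21, and they are 7 of 55421 genes in the deposited count table. All 7 passed the filter on low counts and were measured in all 30 libraries. When a Wnt ligand binds its Frizzled and Lrp receptors, the destruction complex of Axin, Apc and Gsk3 no longer removes β-catenin, which then enters the nucleus and acts with TCF/LEF factors on target genes. Axin2 is a scaffold of that complex and feeds back on the pathway, Sp5 is a zinc finger factor, T (Brachyury) marks the primitive streak and early mesoderm, and Cdx1 is a homeobox gene of the posterior embryo. In mouse embryonic stem cells (mESCs) Tcf7l1 (also called Tcf3) acts mainly as a repressor of target and pluripotency genes, whereas Tcf7 and Lef1 are more often linked to activation.

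The study asked how cells respond to the loss of an X chromosome or of segments of it. The cells were female mESCs from a 129/Sv x Cast/Ei cross, grown with LIF on feeder fibroblasts that were depleted by pre-plating before RNA was extracted. The labels give 2 libraries to XX wild type and 2 to XX Rnf12+/-, 2 to XCastO129 (only the Cast X is left) and 2 to X129OCast (only the 129 X is left), and 22 libraries of 13 lines with a heterozygous X deletion named A, B, AB, C, C-G, D, E, F, H, I, I-TEL, J and K. Every deletion line is also Rnf12 +/-, and the deletions were made on the 129 X and keep a selection cassette. The study places the Rnf12 deletion on the 129 X too, which is lost in XCastO129 and is the only X left in X129OCast. Deletions J and I-TEL came from a second Rnf12+/- line and the others from the first. Lines A, B, AB and C-G have 1 clone each and the other 9 lines have 2, while the XO lines are clones that lost a whole X during targeting. The labels give 3 library series. I21-1529 holds both XX groups and Deletion E, I21-1615 holds the 20 libraries of the other 12 deletion lines, and I23-1325 holds the 4 XO libraries, which were read as single reads where all others were paired. Differences between XO and XX cells, and between those 12 lines and XX cells, therefore cannot be told apart from library series. The labels do not say that the 2 libraries of XX wild type or XX Rnf12+/- are separate cultures, so p-values measure only the spread between these samples.

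All 7 genes are protein-coding and autosomal, so their copy number was not changed by the design. On GRCm38 (mm10), Axin2 (ENSMUSG00000000142) lies on chromosome 11 from 108920349 to 108950783 on the plus strand, Sp5 (ENSMUSG00000075304) on chromosome 2 from 70474923 to 70477729 on the plus strand, and T (ENSMUSG00000062327) on chromosome 17 from 8434423 to 8442496 on the plus strand. Cdx1 (ENSMUSG00000024619) lies on chromosome 18 from 61018862 to 61036199 on the minus strand, and Lef1 (ENSMUSG00000027985) on chromosome 3 from 131110471 to 131224356 on the plus strand. Tcf7 (ENSMUSG00000000782) lies on chromosome 11 from 52252371 to 52283014 on the minus strand, and Tcf7l1 (ENSMUSG00000055799) on chromosome 6 from 72626378 to 72789254 on the minus strand.

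Total counts were 20375194 to 21181405 per library in I21-1529, 14998265 to 16494893 in I23-1325 and 8816184 to 10680026 in I21-1615. Rlim (Rnf12), the targeted gene, was at 193 and 211 TPM (counts per exon length, scaled to one total per library) in XX wild type, 77.6 and 79.7 TPM in XX Rnf12+/-, 71.2 and 77.8 TPM in XCastO129, 3.53 and 3.53 TPM in X129OCast, and 50.4 to 144 TPM in the deletion lines. X129OCast thus had little Rlim, although its label names no Rnf12 genotype. Pou5f1, the core factor of pluripotency, was at 1520 to 2160 TPM in all 30 libraries. The sum of 4 embryonic stem cell markers (Pou5f1, Sox2, Nanog and Esrrb) was 4147 to 4459 TPM in the 4 XX libraries. It was lower in XO cells, at 3326 and 3423 TPM in XCastO129 and at 3178 and 3241 TPM in X129OCast. In the 20 deletion libraries of I21-1615 it was 3516 to 4448 TPM, and in Deletion E 4077 and 4226 TPM. The sum of 8 feeder fibroblast markers (Col1a1 and Dcn among them) was 68.5 to 330 TPM and none of the 8 was at 0 in any library. In both XX groups that sum was high in replicate 1 (260 and 313 TPM) and low in replicate 2 (94.7 and 97.5 TPM). Fewer cells of a type and less RNA per cell cannot be told apart in such bulk samples.

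TCF/LEF factors bind DNA at a short element with the core CTTTGA or CTTTGT. The promoters of Axin2, Sp5 and T, targets whose levels are compared below, are shown to let the core be seen in its surroundings. They run from 250 bases before to 50 bases after the RefSeq start site (GRCm38.p6), all on the plus strand, at chr11:108920099-108920398 for Axin2, chr2:70474673-70474972 for Sp5 and chr17:8434173-8434472 for T. Capitals mark each CTTTGA or CTTTGT and their reverse complements TCAAAG and ACAAAG.
Axin2: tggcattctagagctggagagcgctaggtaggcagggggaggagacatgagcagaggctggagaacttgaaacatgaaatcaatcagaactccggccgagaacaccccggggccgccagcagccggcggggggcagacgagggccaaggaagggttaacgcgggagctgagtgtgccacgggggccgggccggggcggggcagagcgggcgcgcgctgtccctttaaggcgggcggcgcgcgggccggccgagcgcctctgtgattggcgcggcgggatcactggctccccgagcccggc
Sp5: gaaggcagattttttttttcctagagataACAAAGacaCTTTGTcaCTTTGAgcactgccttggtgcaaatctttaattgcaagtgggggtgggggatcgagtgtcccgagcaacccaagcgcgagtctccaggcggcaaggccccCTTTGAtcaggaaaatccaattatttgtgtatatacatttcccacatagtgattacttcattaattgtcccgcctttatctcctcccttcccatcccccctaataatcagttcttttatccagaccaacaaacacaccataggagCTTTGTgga
T: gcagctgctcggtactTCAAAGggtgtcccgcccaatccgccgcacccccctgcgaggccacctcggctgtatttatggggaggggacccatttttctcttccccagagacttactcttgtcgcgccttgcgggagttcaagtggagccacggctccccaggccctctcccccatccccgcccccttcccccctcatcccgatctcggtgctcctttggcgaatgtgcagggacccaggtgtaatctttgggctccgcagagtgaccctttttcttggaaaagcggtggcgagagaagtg
Sp5 held 5 matches, which begin at positions -221, -212, -204, -104 and 41 from the start site, and T held 1, at -234. Axin2 held none in this window, nor did either of the start sites listed for Tcf7, and Tcf7l1 held 1 at -28. Cdx1 was left out of this account of the members, so no count of matches is given for it. For Lef1 4 start sites are listed, of which the first 3 held none and the fourth held 3, at -180, -146 and -120. Of the 27025 promoters of this length (the first listed start site of each gene), 31.3% held at least 1 match on either strand and 6.75% held 2 or more. A match is a description of the letters and not evidence of binding, and a window without one says nothing of sites elsewhere.

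Per length, Tcf7 and Tcf7l1 were the most abundant of the 7 genes and Cdx1 and Sp5 the least. In XX Rnf12+/- the mean levels were 104 TPM for Tcf7, 90.0 TPM for Tcf7l1, 20.9 TPM for Lef1, 7.75 TPM for T, 7.05 TPM for Axin2, 3.14 TPM for Sp5 and 2.61 TPM for Cdx1 (n = 2). Among neighbours in this order, Tcf7l1 stood above Lef1, and Axin2 above Sp5, in 30 of 30 libraries, and Lef1 stood above T in 29. The order of the other neighbours was not stable. Tcf7 stood above Tcf7l1 in 23 libraries, T above Axin2 in 8 and Sp5 above Cdx1 in 24.

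Over the 30 libraries the levels of the targets spread most for T, from 3.05 TPM (Deletion H) through a median of 7.14 TPM to 33.6 TPM (XCastO129). Among the factors Lef1 spread most, from 9.23 TPM (Deletion I) through a median of 28.9 TPM to 63.0 TPM (X129OCast). Axin2 stayed between 6.41 and 17.1 TPM, Tcf7 between 80.2 and 235 TPM, and Tcf7l1 between 49.3 and 156 TPM. The levels of Sp5 (0.989 to 9.74 TPM) and Cdx1 (0.543 to 4.99 TPM) rested on 7 to 128 and 3 to 44 counts per library, so these carry the largest counting error. The plot of levels by line shows all values.

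**Figure D1:**
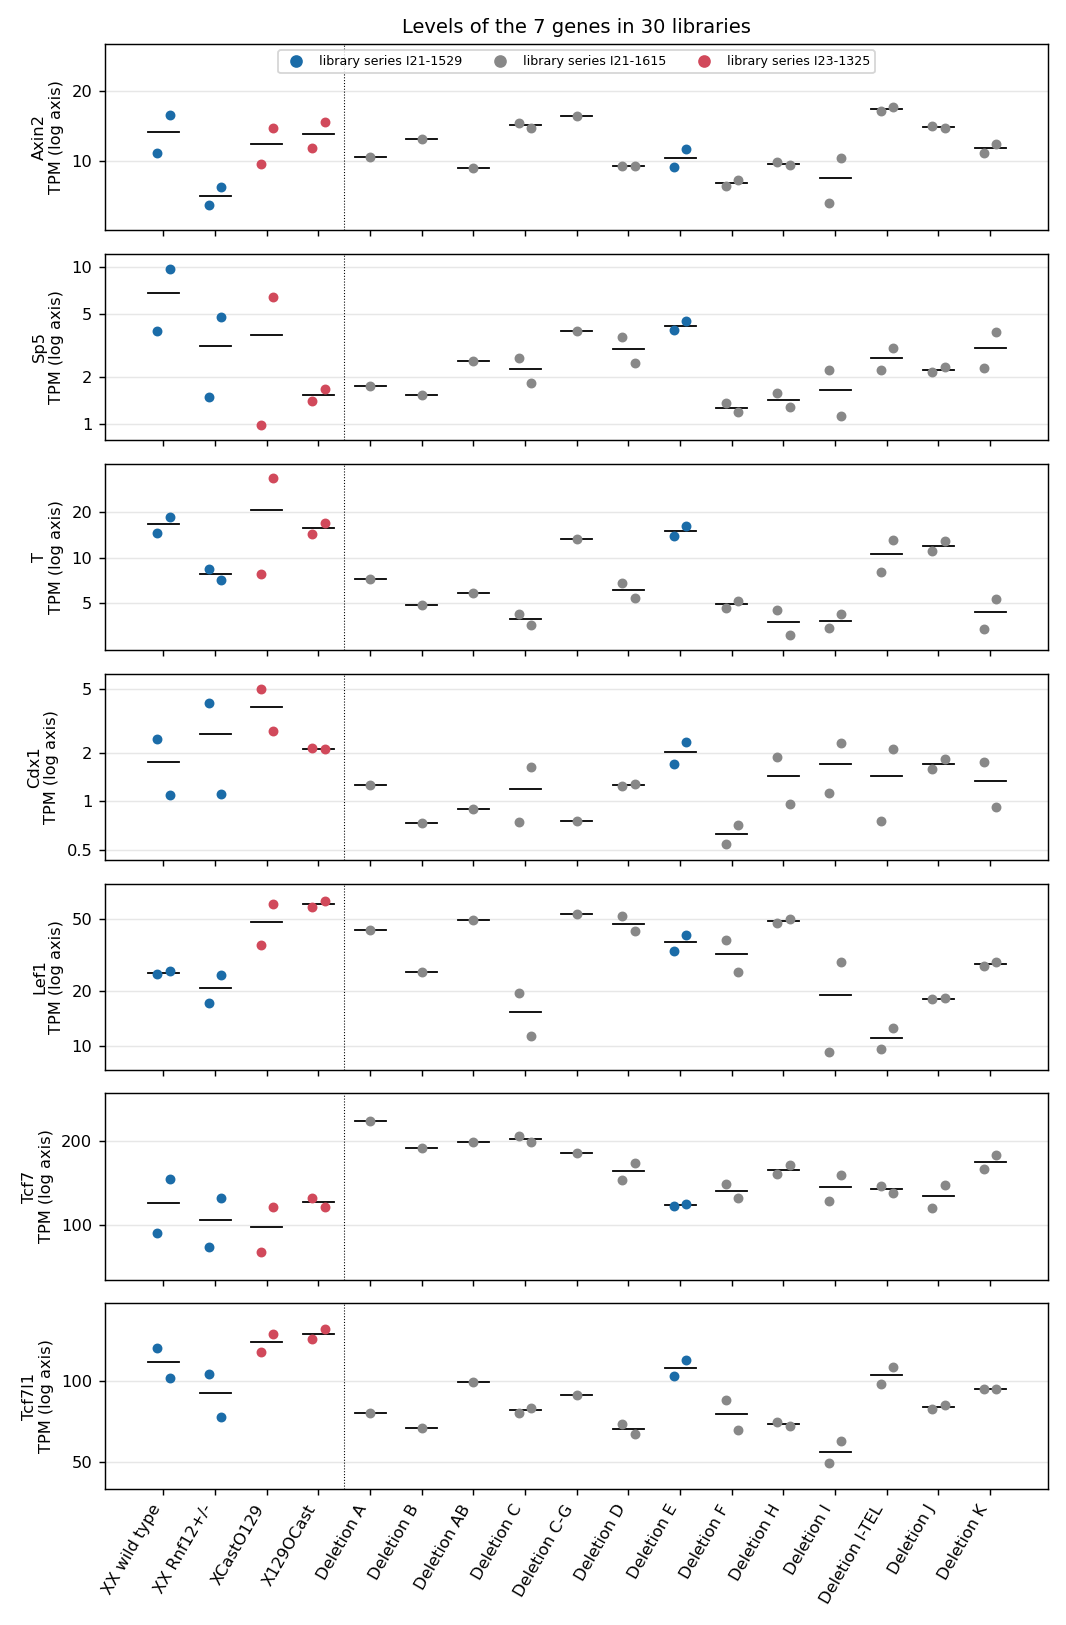
Levels in TPM (log axis) of the 7 genes, 1 point per library and a bar for the mean of a line, colored by library series. Lef1 in the 4 XO libraries (36.0 to 63.0 TPM) lay above the 4 XX libraries (17.2 to 25.9 TPM), and the 2 libraries of Deletion I-TEL were among the lowest.

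The comparison of XX Rnf12+/- with XX wild type comes first, because XX Rnf12+/- is the reference for the XO and deletion lines and both were in one library series. Axin2 was at 6.41 and 7.70 TPM in XX Rnf12+/- against 10.8 and 15.8 TPM in XX wild type. T was at 8.40 and 7.11 TPM against 14.5 and 18.7 TPM. For both targets, and for Lef1, the groups did not overlap. The share of all genes that separate in this way was not computed. Of the 7 genes, 0 passed the edgeR quasi-likelihood test on these 4 libraries with adjustment by the Benjamini-Hochberg method over 16944 genes, where 0.0059% of all genes passed. At an unadjusted p under 0.05 there were 2, beside 1463 of the 16944 genes. These were T (log2 fold change -1.08 ± 0.24 SE, adjusted p = 0.358) and Axin2 (-0.89 ± 0.24, adjusted p = 0.422). DESeq2 called 0. Other fits, given in the last section, did call genes. With all 30 libraries in the fit Axin2 passed. With the replicate number as a block Axin2, T, Tcf7l1 and Sp5 passed, though the labels do not tie these numbers to shared cultures. The other 5 genes lay between -1.09 (Sp5) and 0.59 (Cdx1). Sp5 was at 1.48 and 4.81 TPM in XX Rnf12+/- and at 3.90 and 9.74 TPM in XX wild type, and Lef1 at 17.2 and 24.6 against 24.8 and 25.9 TPM. In both groups replicate 1 had less Axin2, Sp5, Lef1 and Tcf7 and more Cdx1 and Tcf7l1 than replicate 2, so that 6 of the 7 genes shifted the same way, and it also had the higher sum of feeder markers. T was lower in replicate 1 of XX wild type and higher in replicate 1 of XX Rnf12+/-. The part of the feeder markers in these differences was not tested.

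XO cells were then compared with XX Rnf12+/-, and both XO lines share these 2 control libraries. Of the 7 genes, 4 rose in XCastO129 (Axin2, T, Lef1 and Tcf7l1) and none fell. In X129OCast 4 rose (Axin2, T, Lef1 and Tcf7l1) and none fell. Over all 18316 genes tested, 34.4% passed in XCastO129 (16.1% higher) and 44.8% in X129OCast (21.3% higher), so that the share of genes called was large in both comparisons. All adjusted p in this and the following comparisons are from edgeR's quasi-likelihood test on the 30 libraries.

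Lef1 had the largest rise among the factors. It was at 36.0 and 60.8 TPM in XCastO129 and at 58.7 and 63.0 TPM in X129OCast, against 17.2 and 24.6 TPM in XX Rnf12+/- and 24.8 and 25.9 TPM in XX wild type. All 4 XO libraries thus lay above all 4 XX libraries. The log2 fold change against XX Rnf12+/- was 1.31 ± 0.38 in XCastO129 (adjusted p = 0.0163) and 1.69 ± 0.39 in X129OCast (adjusted p = 0.00252). Against XX wild type, a reference added after the first results were seen, it was 1.06 ± 0.38 (adjusted p = 0.0412) and 1.43 ± 0.38 (adjusted p = 0.00656). Against XX wild type 1 of the 7 genes passed in XCastO129 (Lef1, beside 37.6% of all genes) and 3 in X129OCast (Lef1, Tcf7l1 and Sp5, beside 47.5%). In XCastO129 its call was lost without XCastO129 replicate 2 (0.88, adjusted p = 0.15) and without XX Rnf12+/- replicate 1 (1.07, adjusted p = 0.118).

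Tcf7l1, the repressor of the family, was at 129 and 150 TPM in XCastO129 and at 143 and 156 TPM in X129OCast, against 107 and 73.4 TPM in XX Rnf12+/- and 133 and 103 TPM in XX wild type. The XO libraries lay above both XX Rnf12+/- libraries, while XCastO129 overlapped with XX wild type. The log2 fold changes were 0.73 ± 0.15 (adjusted p = 0.000921) and 0.88 ± 0.15 (adjusted p = 0.000101) against XX Rnf12+/-. Against XX wild type they were 0.37 ± 0.15 (adjusted p = 0.0595) and 0.52 ± 0.15 (adjusted p = 0.00795). Tcf7, at 80.2 and 116 TPM in XCastO129 and 125 and 116 TPM in X129OCast, did not pass in either line (0.011 ± 0.20, adjusted p = 0.972, and 0.35 ± 0.20, adjusted p = 0.16).

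Among the targets, Axin2 was at 9.62 and 13.9 TPM in XCastO129 and at 11.3 and 14.8 TPM in X129OCast. These values lay above XX Rnf12+/- (6.41 and 7.70 TPM) and overlapped with XX wild type (10.8 and 15.8 TPM). Against XX Rnf12+/- the log2 fold changes were 0.83 ± 0.20 (adjusted p = 0.00296) and 1.03 ± 0.20 (adjusted p = 0.000307), but against XX wild type they were -0.054 ± 0.20 (adjusted p = 0.855) and 0.14 ± 0.20 (adjusted p = 0.573). T was at 7.81 and 33.6 TPM in XCastO129 and at 14.3 and 17.1 TPM in X129OCast. The first XCastO129 library lay within the range of XX Rnf12+/- and the second was the highest of all 30 libraries. The log2 fold changes of T were 1.51 ± 0.41 (adjusted p = 0.0082) and 1.16 ± 0.41 (adjusted p = 0.029) against XX Rnf12+/-, and 0.44 ± 0.40 (adjusted p = 0.409) and 0.087 ± 0.40 (adjusted p = 0.873) against XX wild type. Without XCastO129 replicate 2, the difference of T in XCastO129 was 0.10 (adjusted p = 0.829), that of Axin2 was 0.54 (adjusted p = 0.0759), and 1 of the 7 genes passed (Tcf7l1). In X129OCast the call of T was lost without any 1 of the 4 libraries compared (log2 fold change 1.03 to 1.28, adjusted p = 0.0594 to 0.128).

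Sp5 and Cdx1 did not pass against XX Rnf12+/-. Sp5 was at 0.989 and 6.45 TPM in XCastO129 and at 1.41 and 1.66 TPM in X129OCast. Its log2 fold changes were 0.34 ± 0.60 (adjusted p = 0.703) and -0.89 ± 0.66 (adjusted p = 0.289), and against XX wild type Sp5 was lower in X129OCast by -1.98 ± 0.64 (adjusted p = 0.0154). Cdx1 was at 4.99 and 2.74 TPM in XCastO129 and at 2.14 and 2.12 TPM in X129OCast, with log2 fold changes of 0.66 ± 0.51 (adjusted p = 0.333) and -0.15 ± 0.54 (adjusted p = 0.847).

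Both XO lines are in one library series. They differ in which X is left and also in Rlim, which was at 3.53 TPM in both X129OCast libraries and at 71.2 and 77.8 TPM in XCastO129, and these differences cannot be told apart, here or in the comparisons of X129OCast with XX cells. Of the 7 genes, 0 passed between X129OCast and XCastO129, where 5.81% of all genes passed. At an unadjusted p under 0.05 there were 0, beside 3846 of 18316 genes, and DESeq2 called 0. The estimates ran from -1.22 ± 0.67 for Sp5 to 0.38 ± 0.38 for Lef1, so the errors of single genes were wide. Without XCastO129 replicate 1, T (-1.05, adjusted p = 0.0205) and Sp5 (-2.01, adjusted p = 0.0387) passed.

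**Figure D2:**
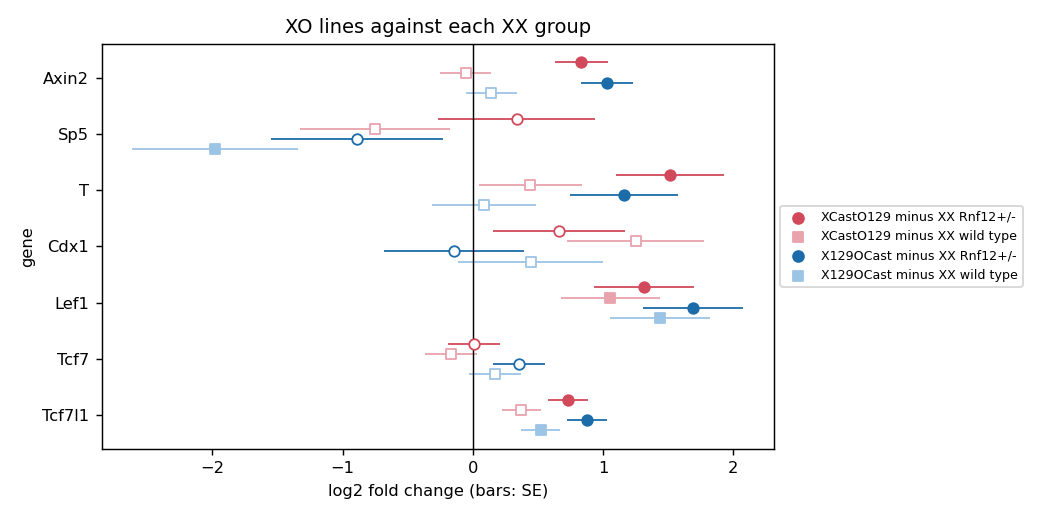
Log2 fold changes (points, with SE as bars) of the 7 genes in each XO line against XX Rnf12+/- (circles) and XX wild type (squares), with filled symbols for an adjusted p under 0.05. With XX wild type as the reference Axin2 was at -0.054 and 0.14 and T at 0.44 and 0.087, while Lef1 was at 1.06 and 1.43.

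The wider pathway was described by lists of its other genes, in the XO lines against XX Rnf12+/- unless stated. Of 12 other Wnt targets tested, 2 rose and 1 fell in XCastO129, and 3 rose and 1 fell in X129OCast, with medians of 0.16 and -0.074 beside -0.036 and -0.059 over all genes. Nkd1, a feedback inhibitor, rose in both (1.15, adjusted p = 0.0111, and 1.20, adjusted p = 0.00612), as did the receptor gene Tnfrsf19 (0.60 and 0.77). Bambi fell in XCastO129 (-0.46). Cdx4, which is X-linked and so lost a copy in XO cells, fell in X129OCast. It had 1 and 0 counts there against 21 and 14 in XX Rnf12+/-. Of 15 extracellular and membrane inhibitors tested, 1 rose and 4 fell in XCastO129, and 2 rose and 6 fell in X129OCast (medians -0.020 and -0.76). Kremen1, a Dkk receptor, rose (0.47 and 0.88). The secreted Frizzled-related gene Sfrp5 fell, with 14.1 and 18.1 TPM in XX Rnf12+/-, 3.51 and 3.72 TPM in XCastO129, and 2.90 and 3.68 TPM in X129OCast, which gave log2 fold changes of -2.05 and -2.14. Dkk3 fell as well (-1.17 and -1.90). Against XX wild type, 0 of the 12 other targets rose and 1 fell in XCastO129. Neither Nkd1 nor Tnfrsf19 was thus called as a rise there. In X129OCast 1 of the 12 rose and 1 fell. Of the 15 inhibitors, 2 rose and 2 fell in XCastO129, and 4 rose and 4 fell in X129OCast. Over all genes 37.6% passed in XCastO129 and 47.5% in X129OCast with this reference.

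Of 17 Wnt ligands and R-spondins tested, 3 rose and 3 fell in XCastO129, and 2 rose and 2 fell in X129OCast. Wnt5b (1.08 and 1.53) and Rspo1 (1.05 and 1.14) rose in both lines, and Wnt11 (-2.01 and -1.39) and Rspo2 fell in both, the latter with 0 to 4 counts per XO library. Of 16 genes for ligand secretion and receptors, 1 rose and 3 fell in XCastO129 (Fzd5 at 0.75, with Wls at -1.66, Porcn at -0.76 and Fzd10 at -0.70), and 5 rose and 4 fell in X129OCast. Of 13 destruction complex genes and transducers, 1 rose and 3 fell, and 4 rose and 5 fell. Of 10 nuclear partners, 3 rose and 2 fell, and 4 rose and 2 fell, with the co-activator Bcl9 (0.45 and 0.73) and the co-repressor Tle4 (0.54 and 0.92) rising and Tle3 (-0.52 and -0.43) falling in both lines.

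Porcn, which lipidates Wnt ligands, and Amer1, which recruits Apc to the membrane, are X-linked and so lost a copy in XO cells. Porcn fell by 0.76 in XCastO129 and by 1.08 in X129OCast on the log2 scale, and Amer1 fell by 0.46 and by 0.62. These values are totals and not per copy. In the counts that could be given to an allele, those assigned to the allele of the lost X were few but not all 0. In XCastO129, 5 of 44 Porcn counts were assigned to 129 in replicate 1 (11.4%, Wilson 95% interval 4.95 to 24.0%). In replicate 2 it was 0 of 55, and no Amer1 counts were assigned to 129 in either. In X129OCast no Porcn counts were assigned to Cast, but 2 of 51 Amer1 counts were in replicate 2. The source of these counts was not tested. Among the deletion lines 0 of 18 Porcn counts came from 129 in Deletion A (Wilson 95% interval up to 17.6%), 0 of 6 in Deletion AB (up to 39.0%), and 0 of 12 Amer1 counts in Deletion C-G (up to 24.3%).

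Pluripotency genes that Tcf7l1 is known to repress in mESCs were also compared. Nanog was at 926 and 938 TPM in XX Rnf12+/-, at 461 and 526 TPM in XCastO129, and at 312 and 314 TPM in X129OCast. Of the 4 genes of this list, 3 fell in XCastO129 (Tfcp2l1 -0.90, Nanog -0.82, Klf2 -0.79) and 4 in X129OCast, led by Nanog (-1.43), Tfcp2l1 (-1.40) and Klf2 (-1.24), and none rose. The list medians were -0.80 and -1.32. Between the XO lines 2 of these 4 genes were lower in X129OCast, where 5.81% of all genes passed. Tcf7l1 did not pass there (0.15 ± 0.15, adjusted p = 0.638). Any part of Tcf7l1 in the levels of these genes was not tested. Of the 4 embryonic stem cell markers, which include Nanog, 2 fell in XCastO129 and 3 in X129OCast, and none rose (list medians -0.502 and -0.655). Markers of primed pluripotency moved with these results. Their sum was 204 to 299 TPM in the 4 XX libraries, 425 and 549 TPM in XCastO129, and 772 and 790 TPM in X129OCast. Most of that sum was Dnmt3b, a DNA methyltransferase gene, at 366 and 430 TPM in XCastO129. The first XCastO129 library was at the same time the lowest of all 30 in Otx2 (42.5 TPM) and, at 3.66 TPM of Fgf5, below all 4 XX libraries (6.65 to 22.0 TPM), so the list did not move as one there. Of the 4 primed markers, 1 rose in XCastO129 (Dnmt3b, 1.76) and 3 in X129OCast (Dnmt3b 2.42, Otx2 1.17, Pou3f1 1.16). Of 7 primitive streak markers tested, 0 passed in XCastO129, and 1 rose (Eomes, 0.99) and 1 fell (Evx1, -1.70) in X129OCast. The sum of feeder markers in the XO libraries (95.5 to 213 TPM) lay within the range of the XX libraries. What part the primed markers have in the levels of Lef1 or Tcf7l1 was not tested.

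Deletion E was the one deletion line in the same library series as its XX Rnf12+/- control. T was at 14.0 and 16.1 TPM in Deletion E, Lef1 at 33.3 and 41.2 TPM, and Axin2 at 9.34 and 11.2 TPM. For each of these genes both libraries lay above both XX Rnf12+/- libraries, while Sp5, Cdx1, Tcf7 and Tcf7l1 overlapped. The share of all genes that separate in this way was not computed. Of the 7 genes, 0 passed, where 0.579% of all genes passed, and DESeq2 called 0. At an unadjusted p under 0.05 there were 2, beside 2044 of 18316 genes. These were T (0.90 ± 0.41, adjusted p = 0.421) and Axin2 (0.48 ± 0.20, adjusted p = 0.361). Lef1 was at 0.78 ± 0.38 (adjusted p = 0.472). No gene of the pathway lists passed in this comparison. The sum of feeder markers was 219 and 330 TPM and that of primitive streak markers 47.1 and 60.8 TPM in Deletion E, against 313 and 97.5 TPM and 31.1 and 30.5 TPM in XX Rnf12+/-, and their part in the levels of T was not tested.

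The 12 other deletion lines share a library series and were compared among themselves. A test for any difference among the lines called 5 of the 7 genes, beside 44.8% of all genes. These were Lef1 (adjusted p = 0.00445), Axin2 (adjusted p = 0.00535), Tcf7l1 (adjusted p = 0.00616), T (adjusted p = 0.034) and Tcf7 (adjusted p = 0.0402), while Sp5 (adjusted p = 0.795) and Cdx1 (adjusted p = 0.863) did not pass. Lef1, Axin2 and Tcf7l1 passed under all 23 other settings and left-out clones that were tried. T was lost in 11 of them (up to an adjusted p of 0.0863) and Tcf7 in 15 (up to 0.0874).

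Each line was then set against the mean of the other 11. Of 84 pairs of a gene and a line, 6 passed, beside 8.44% of all such pairs over the genes tested, so the 7 genes were not called more often than others. Lef1 gave 2 of these calls. It was at 9.62 and 12.6 TPM in Deletion I-TEL (-1.57 ± 0.34, adjusted p = 0.00617, where 14.8% of all genes passed) and at 19.5 and 11.4 TPM in Deletion C (-0.99 ± 0.32, adjusted p = 0.031, where 30.8% passed), against 9.23, 28.3 and 53.3 TPM as the lowest, median and highest of the 20 libraries. The lowest library was a clone of Deletion I, whose other clone was at 28.9 TPM, a gap of -1.63 on the log2 scale. The other 7 lines with 2 clones had gaps of at most 0.749 in size, and the line means ran from 11.1 TPM (I-TEL) to 53.3 TPM (C-G). Lines D, H, A, AB and C-G had 42.8 to 53.3 TPM, yet none of them passed.

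Tcf7l1 passed in Deletion I, where it was at 49.3 and 59.7 TPM, the lowest values of the 20 libraries (-0.54 ± 0.12, adjusted p = 0.0118, where 7.44% of all genes passed). It also passed in Deletion I-TEL, where the loss ran beyond the targeted segment, with 97.2 and 113 TPM (0.41 ± 0.11, adjusted p = 0.0161). Deletions I and I-TEL thus differed in opposite directions from the other lines, and they come from different Rnf12+/- lines. Axin2 passed in Deletion I-TEL, with 16.4 and 17.1 TPM as the highest values of the 20 libraries (0.57 ± 0.15, adjusted p = 0.0109). T passed in Deletion J, with 11.1 and 12.9 TPM against a median of 5.22 TPM (1.05 ± 0.32, adjusted p = 0.0278, where 18.5% of all genes passed). The single clone of Deletion C-G had more T than either (13.3 TPM, 1.22), but with 1 library it did not pass. Each of the 6 calls was lost with at least 1 clone of its own line left out. Lef1 in Deletion C was at -0.66 without replicate 2, and Tcf7l1 in Deletion I at -0.44 without replicate 1. T in Deletion J was at 1.14 without replicate 1 and at 0.95 without replicate 2. Leaving out either clone of Deletion I-TEL brought the 6 calls to 3, and leaving out Deletion I replicate 2 raised them to 12.

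**Figure D3:**
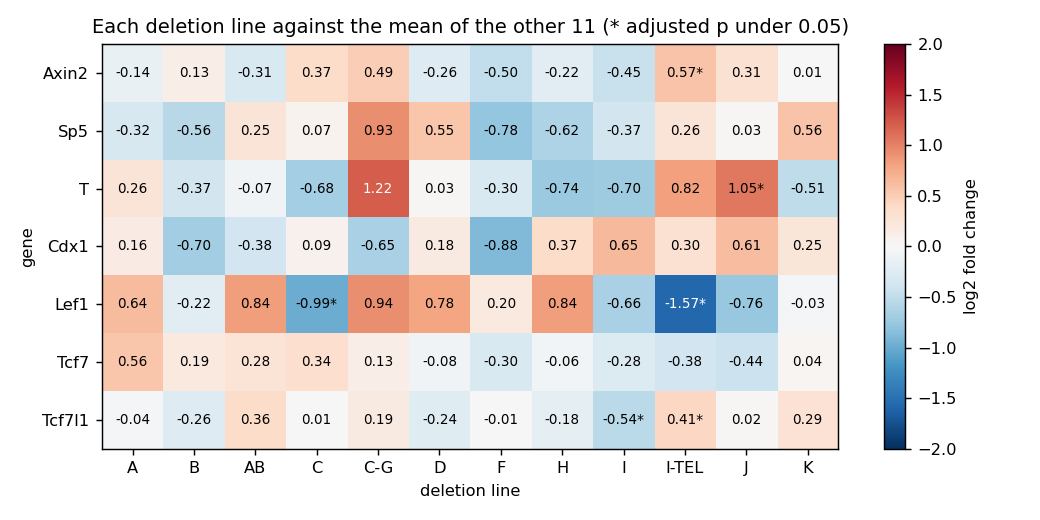
Log2 fold change of each gene in each of the 12 deletion lines of one library series against the mean of the other 11, with a star for an adjusted p under 0.05. The 6 starred cells are Lef1 (-1.57), Axin2 (0.57) and Tcf7l1 (0.41) in I-TEL, Lef1 in C (-0.99), Tcf7l1 in I (-0.54) and T in J (1.05).

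Deletions J and I-TEL, from the second Rnf12+/- line, were compared as a pair with the 10 lines from the first. Of the 7 genes, 5 passed, beside 31.3% of all genes. Axin2 was at 13.8 to 17.1 TPM in the 4 libraries of J and I-TEL and at 6.53, 10.1 and 15.6 TPM (lowest, median and highest) in the other 16, and it rose by 0.48 ± 0.11 (adjusted p = 0.00254). T was at 8.05 to 13.1 TPM against 3.05, 4.75 and 13.3 TPM and rose by 1.03 ± 0.25 (adjusted p = 0.004). For Axin2 only Deletion C-G and Deletion C reached the range of J and I-TEL, and for T only Deletion C-G did.

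Lef1 went the other way, with 9.62 to 18.3 TPM in J and I-TEL against 9.23, 33.8 and 53.3 TPM in the other 16 libraries (-1.28 ± 0.24, adjusted p = 0.00104). Tcf7 was also lower, at 115 to 139 TPM against 122, 165 and 235 TPM (-0.45 ± 0.12, adjusted p = 0.00762). Tcf7l1 was at 78.4 to 113 TPM against 49.3, 73.1 and 98.8 TPM (0.24 ± 0.09, adjusted p = 0.0439), and its call was lost in 13 of 23 other settings or left-out clones. Without Deletion I-TEL replicate 2 or without Deletion J replicate 1, 3 of the 7 genes passed. The founder line and the deleted segments cannot be told apart in this comparison.

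Markers of other cells moved with the same comparison. Of 8 feeder fibroblast markers 5 rose and none fell, led by Lum and Col3a1 (both 1.72), and their sum was 138 to 255 TPM in J and I-TEL against 68.5, 97.0 and 235 TPM (lowest, median and highest) in the other 16 libraries. Of 5 primitive endoderm markers 4 rose, among them Sox17 (1.09) and Gata4 (1.07), and their sum was 20.2 to 26.8 TPM against 10.4, 14.1 and 17.7 TPM. Of 7 primitive streak markers tested 4 rose (Lhx1 2.84, Mixl1 1.43, Gsc 1.14, Eomes 0.44), and their sum was 31.8 to 41.0 TPM against 16.2, 23.2 and 36.3 TPM. The part of these markers in the levels of the 7 genes was not tested. Of the pathway genes, 4 ligands or R-spondins rose and 2 fell (Wnt5a 1.69, Wnt3 1.27 and Rspo3 1.24 among the rises, Rspo1 -0.54 and Rspo4, with 0 to 3 counts per library of J and I-TEL, as the falls). For ligand secretion and receptors 5 rose and 4 fell (Wls 1.35, Fzd4 -0.70), and 3 inhibitors rose and 3 fell (Frzb 2.14, Sfrp2 -1.29).

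**Figure D4:**
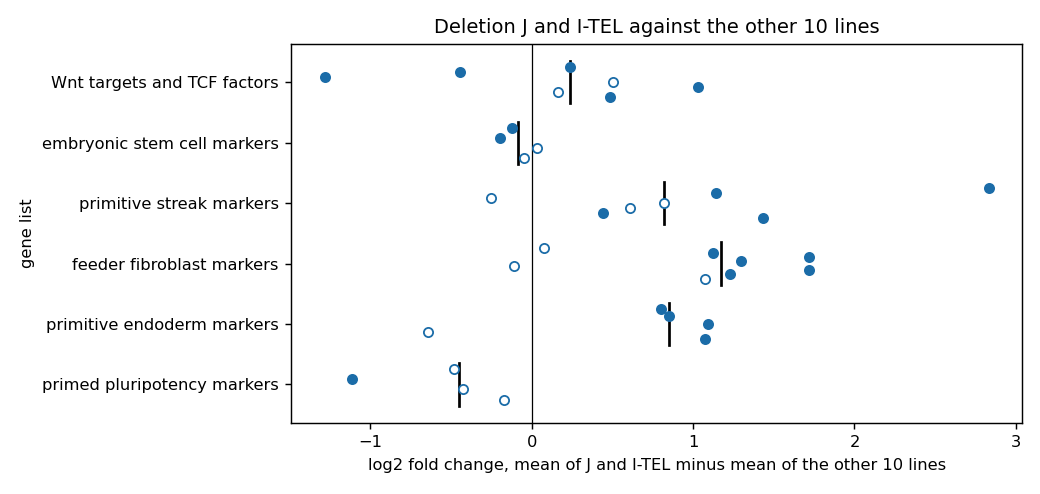
Log2 fold changes of Deletion J and I-TEL against the other 10 lines, 1 point per gene (filled for an adjusted p under 0.05) and a bar for the list median, for the 7 genes and 5 marker lists. The medians of the feeder fibroblast (1.17), primitive endoderm (0.85) and primitive streak (0.82) markers lay above that of the 7 genes.

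Against XX Rnf12+/-, which is in another library series, the mean of the 12 lines was higher for Axin2 (0.62 ± 0.16, adjusted p = 0.00632) and Tcf7 (0.61 ± 0.16, adjusted p = 0.00889) and lower for Cdx1 (-1.23 ± 0.40, adjusted p = 0.0258), which is 3 of 7 genes beside 27.5% of all genes. Tcf7 was at 115, 155 and 235 TPM (lowest, median and highest) in the 20 libraries against 83.8 and 125 TPM in XX Rnf12+/-. Cdx1 was at 0.543, 1.19 and 2.30 TPM against 4.11 and 1.12 TPM. None of the 3 calls was left without XX Rnf12+/- replicate 1, where Cdx1 differed by -0.028 (adjusted p = 0.993). With XX wild type as the reference, where 32.3% of all genes passed, Axin2 turned to -0.26 ± 0.14 (adjusted p = 0.166), Tcf7 stayed higher (0.43 ± 0.15, adjusted p = 0.0424), and T (-1.48 ± 0.28, adjusted p = 0.000547), Sp5 (-1.69 ± 0.39, adjusted p = 0.00317) and Tcf7l1 (-0.62 ± 0.11, adjusted p = 0.000231) were lower.

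Of the 12 other Wnt targets tested, 3 were higher and 5 lower in the mean of the 12 lines than in XX Rnf12+/-. Nkd1 (1.38) and Rnf43 (1.36), both negative regulators, and Nkd2 (0.61) were higher. Rnf43 was near the floor, at 0.125 to 1.87 TPM over the 30 libraries and lowest in XX Rnf12+/- replicate 1. The X-linked Cdx4 (-1.47), Myc (-1.42) and Notum (-1.31) had the largest falls. Among nuclear partners Tcf7l2, the fourth TCF factor, was lower (-0.98, adjusted p = 0.000405), at 2.43, 3.69 and 6.39 TPM in the 20 libraries against 5.53 and 7.75 TPM. Of 15 inhibitors 1 was higher and 7 lower. The 12 lines and XX cells differ in library series, so none of these values can be ascribed to the deletions.

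Reads that overlap a known difference between 129 and Cast gave the share of each allele. Shares are given for libraries with at least 10 allelic counts, with Wilson 95% intervals that cover counting error only. T came mostly from the Cast allele. Over the 21 usable libraries 189 of 842 counts were from 129, a share of 22.4% (19.8 to 25.4%), and the shares of single libraries ran from 0% of 13 counts (Deletion D replicate 1, which allows up to 22.8%) to 48.1% (XX Rnf12+/- replicate 2). The other genes of chromosome 17 gave 48.2 to 50.6% in every library. Among 8841 autosomal genes with at least 500 allelic counts over the 30 libraries, 1.29% had a share as low as T or lower, and the median share was 51.9%. The skew of T was seen in XX (23.7%), XO (24.0%) and deletion libraries (19.8%).

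Lef1 also leaned to Cast, with 41.5% from 129 over 8163 counts (40.4 to 42.6%), and 8.87% of the 8841 genes had a share as low or lower. This pooled share lies between those of the groups, since the XO libraries held 3388 of the 8163 counts at 48.7%, while the XX and deletion libraries were at 36.1% and 36.4%, and the mean over the 30 libraries was 36.9%. The pooled interval therefore describes no single group. In the XX libraries it was 44.9% and 32.1% (wild type) and 38.5% and 29.9% (Rnf12+/-), and in the XO libraries 47.4% and 45.9% (XCastO129) and 50.8% and 50.1% (X129OCast). All 4 XO libraries lay above all 4 XX libraries. The means were 48.5% ± 2.29 and 36.4% ± 6.77 (SD, n = 4 each), and an exact two-sided permutation test, added after the shares were seen, gave p = 0.0286, the smallest that 4 against 4 libraries allow, and p = 0.143 after adjustment over 5 genes. The XO cells were sequenced with single reads and had 21.9 to 22.0% of their counts assigned to an allele against at most 12.7% in the others, so read type cannot be told apart from this difference. In the 22 deletion libraries the share of Lef1 was 18.9% at the lowest (Deletion I replicate 1, on 37 counts) and 50.0% at the highest (Deletion J replicate 2), and Deletion I-TEL, with little Lef1, had 22.0% and 23.4%.

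Axin2 leaned to 129, at 58.5% over 976 counts (55.4 to 61.6%), and 79.7% of genes had a share as low or lower. Tcf7 (49.6%) and Tcf7l1 (52.1%) lay near the median of all genes. For these 3 genes and T, XO and XX libraries differed by -5.72 (T) to 5.43 (Axin2) percentage points, with exact permutation p of 0.486 to 0.8. Sp5 and Cdx1 had 10 allelic counts or more in 2 and 3 libraries only, too few to give a share by group.

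**Figure D5:**
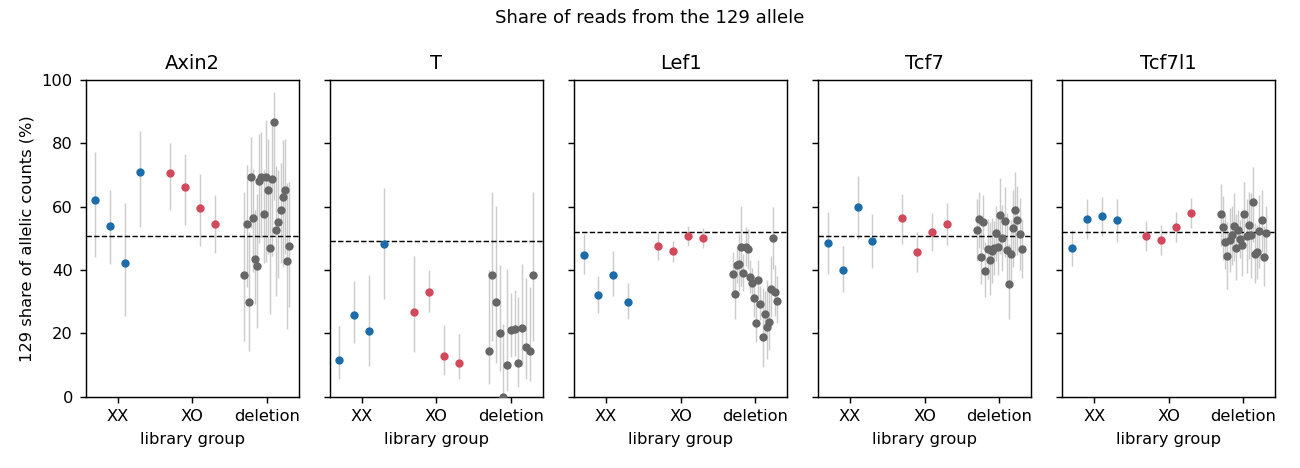
Share of allelic counts from the 129 allele (percent, with Wilson 95% intervals) in each library with at least 10 allelic counts, and a dashed line for the median share of the other genes on the same chromosome. T lay below its line (49.1%) in all 21 libraries, and Lef1 was higher in XO (45.9 to 50.8%) than in XX libraries (29.9 to 44.9%).

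Over the means of the 12 lines, the 7 genes did not follow a single pattern. As a description over 12 points of one library series, the highest Pearson correlation of log2(TPM + 1) between members was 0.63 for Axin2 and T (Spearman 0.45), and the lowest was -0.40 for Axin2 and Lef1 (Spearman -0.32). Among autosomal protein-coding genes with a mean TPM over 5, those most like Lef1 were Smim26 (0.93), Psmb10 (0.92) and Psma7 (0.92). For Tcf7 they were Large2 (0.96), Arhgef16 (0.96) and Fuz (0.94), and for Tcf7l1 Armc10 (0.86), Pdlim1 (0.86) and Elavl2 (0.85). Among the targets, Axin2 was most like Cpsf4l (0.87), Rapsn (0.86) and Pcnx3 (0.85), and T was most like Mrpl45 (0.87), Cpsf4l (0.86) and Zdhhc1 (0.86). Sp5 was most like Fgf8 (0.88), Mapk8ip2 (0.80) and Rragd (0.79), and Cdx1 like Zbtb38 (0.87), Spcs1 (0.86) and Slc27a3 (0.85). These are the highest of 9902 or 9903 correlations each.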

How the data were processed

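RNA of 30 mESC libraries was sequenced from stranded mRNA libraries. Per the study's methods, the authors trimmed reads (Trim Galore 0.6.7), mapped with HISAT2 2.2.1 on an N-masked mm10, split alleles with SNPsplit and counted exons with featureCounts. The submitters' processing notes list Trim Galore, HISAT2, SAMtools 1.10 and HTSeq 0.12.4. The deposited values are raw counts per gene, for all reads and for each allele. Of 55421 genes, 55240 matched GENCODE M21; the other 181 held at most 0.004% of a library's counts and were left out.

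TPM were computed from counts and exon length. Genes with at least 10 counts in 2 libraries were tested with edgeR 4.0.16 (R 4.3.3; quasi-likelihood, TMM factors of autosomal genes, 1 term per condition, all 30 libraries), 18316 genes, with Benjamini-Hochberg adjustment at 0.05. The fit of XX Rnf12+/- against XX wild type used those 4 libraries alone. The fit was tested on simulated data. DESeq2 1.42.0, other normalizations, filters, libraries and references, a replicate block and left-out replicates were the alternatives. Shares and figures used Python 3.11.15, scipy 1.17.1 and matplotlib 3.10.9. Promoters and motifs came from RefSeq (GRCm38.p6). The members and gene lists were chosen with earlier results of these data known. Besides the members, Rlim, Porcn and Amer1, up to 3 called rises and 3 falls per list and comparison, and the 3 genes most like each member were eligible to be named.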

Additional observations from a re-analysis of the deposited data

How the results depend on the processing

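In XCastO129 against XX Rnf12+/-, 4 of the 7 genes passed in edgeR; 1 did with XX wild type as the reference and 1 with only the compared groups in the fit, and leaving out 1 library at a time gave 1 to 4. Axin2 turned to -0.054 there, and to -0.26 in the mean of the 12 lines, when XX wild type was the reference. Leaving out 1 library gave 3 to 4 in X129OCast, 0 to 2 between the XO lines, 0 for Deletion E, 0 to 4 for the mean of the 12 lines, 3 to 5 for J and I-TEL, 3 to 4 for any difference among lines and 3 to 12 of the 84 pairs. With no filter beyond 1 count, 2 genes passed in Deletion E, 5 in the mean of the 12 lines and 23 pairs. With only the compared groups in the fit 17 pairs passed. For the block, the filters and the other fits and left-out libraries, the share of all genes called is not given. These counts therefore do not tell whether the 7 genes were called more often than others. The causes were not tested. A left-out clone leaves some lines with 1 library, which is then assumed to vary like the others.

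XX Rnf12+/- against XX wild type gave 0 calls in the 4-library fit, 0 for each library left out, 1 with all 30 libraries in the fit (Axin2, adjusted p = 0.0154) and 4 with the replicate number as a block (Axin2, T, Tcf7l1 and Sp5), and the block gave 10 of the 84 pairs. The labels do not say that a number marks a shared culture. Over 78 pairs of groups the correlation of replicate differences was -0.28 to 0.61 (median 0.009), highest for these XX groups, whose replicates thus shifted together. With 2 pairs and no label that ties them, the data do not settle whether the numbers pair these samples. The block moved no other count by over 1.5 times. The depth of the 20 deletion libraries limits Sp5 and Cdx1 most.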
